A study of Mus musculus with 6 samples.

Results

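The genes described are 10 imprinted genes with known roles in growth, *H19*, *Igf2*, *Cdkn1c*, *Dlk1*, *Meg3*, *Grb10*, *Igf2r*, *Peg3*, *Ndn* and *Plagl1*. They were taken by symbol from the 34745 genes of the bulk RNA-seq tables, and each symbol matched 1 row of both tables. The cells were hematopoietic stem cells (HSCs), sorted from adult C57BL/6 bone marrow as CD150+ CD34- CD48- cells of the LSK fraction (lineage-negative, Sca1-positive, cKit-positive). There were 3 WT and 3 KO samples. All 6 carried floxed *Med23* alleles (genotype Med23floxp/flowp), and the KO samples also carried *Mx1-cre*, so that *Med23*, which encodes a subunit of the Mediator complex, could be deleted. The *Mx1* promoter responds to interferon, deletion was induced with poly(I:C), and *Mx1-cre* acts in other interferon-responsive cells as well as in HSCs. The WT mice were Cre-negative littermates, and whether the WT mice of these libraries received poly(I:C) was not stated. The labels do not say whether the samples of a group came from separate animals, so the p-values measure the spread between samples, which may be partly technical.

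An imprinted gene is expressed from 1 parental copy, because DNA methylation laid down in the egg or the sperm differs between the parental copies. Paternally expressed genes such as *Igf2*, *Dlk1*, *Peg3*, *Ndn* and *Plagl1* and maternally expressed genes such as *H19*, *Cdkn1c*, *Meg3* and *Igf2r* often sit side by side in clusters. Many are high in the fetus and placenta and fall after birth. In adult HSCs the network is known for *Cdkn1c* (p57), which holds the cells in quiescence, and for the *H19*-*Igf2* locus, whose maternal imprint restrains growth signalling through the Igf1 receptor.

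Several of the transcripts also host miRNAs, which are shown here. Reads counted on a host gene can include precursors that lie in its exons, although the libraries did not measure mature miRNAs. In the GENCODE M21 annotation of GRCm38, *H19* (ENSMUSG00000000031) is a noncoding RNA on the minus strand at chr7:142575529-142578143, and the miR-675 hairpin lies inside an exon of 3 of its 7 annotated transcripts. *Igf2* (ENSMUSG00000048583) lies 72622 bp away on the same strand, at chr7:142650766-142666816, and its miR-483 hairpin lies outside the exons of all 9 transcripts. *Meg3* (ENSMUSG00000021268) is a noncoding RNA on the plus strand at chr12:109541001-109571726, and miR-770 lies in an exon of 1 of its 11 transcripts. The mature sequences are from RefSeq (GRCm38.p6), with the seed, bases 2 to 8 from the 5′ end, in capitals. No seed occurs more than once among the 6.
miR-675-5p (chr7:142577112-142577133): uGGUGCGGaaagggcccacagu
miR-675-3p (chr7:142577078-142577099): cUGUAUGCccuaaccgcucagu
miR-483-5p (chr7:142654968-142654989): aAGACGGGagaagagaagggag
miR-483-3p (chr7:142654932-142654952): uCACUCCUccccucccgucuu
miR-770-5p (chr12:109563710-109563731): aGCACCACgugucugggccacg
miR-770-3p (chr12:109563744-109563765): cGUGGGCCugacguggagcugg

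RefSeq promoter windows (GRCm38.p6) were found for 8 of the 10 genes, 13 windows in all. None was found for *H19* or *Cdkn1c*, so their promoters were not searched. The windows were read over the 250 bases before each annotated start. The motif TGACGTCA, the full cAMP response element, is the same on both strands and occurred in 1.55% of 32851 windows. Among the 13 windows it occurred in 2, of *Peg3* and of *Meg3*, which are shown because their counts behaved differently below. The GC box GGGCGG, searched on both strands, occurred in 32.7% of all windows and in 5 of the 13, of *Grb10*, *Igf2*, *Igf2r* and *Plagl1*. The E-box CAGCTG, which muscle regulatory factors can bind and which is the same on both strands, occurred in 13% of all windows and in 0 of the 13. Capitals mark the response element in *Peg3* and *Meg3* and the GC boxes in 1 of the 4 *Igf2* windows, where there are 2. A match of letters describes the window and does not show that a factor binds there.
Peg3 (chr7:6730420-6730669, minus strand): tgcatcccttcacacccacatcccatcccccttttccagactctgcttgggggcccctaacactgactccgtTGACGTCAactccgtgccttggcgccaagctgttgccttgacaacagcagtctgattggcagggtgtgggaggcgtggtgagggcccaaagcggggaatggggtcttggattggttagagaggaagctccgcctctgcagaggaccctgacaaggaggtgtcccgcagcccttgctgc
Meg3 (chr12:109540746-109540995, plus strand): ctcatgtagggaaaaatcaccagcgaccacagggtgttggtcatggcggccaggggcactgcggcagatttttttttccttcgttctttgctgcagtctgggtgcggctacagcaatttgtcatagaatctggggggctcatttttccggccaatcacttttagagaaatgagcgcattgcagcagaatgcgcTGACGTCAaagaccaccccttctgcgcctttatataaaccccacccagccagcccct
Igf2 (chr7:142657497-142657746, minus strand): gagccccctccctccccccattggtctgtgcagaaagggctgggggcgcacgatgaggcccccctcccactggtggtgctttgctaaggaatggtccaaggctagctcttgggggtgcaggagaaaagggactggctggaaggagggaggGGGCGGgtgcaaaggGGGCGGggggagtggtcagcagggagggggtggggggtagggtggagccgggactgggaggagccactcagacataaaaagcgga

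The libraries held between 3537269 and 8131344 counts, and 3 counts, taken as the smallest detectable signal, equal 0.369 to 0.927 CPM (counts rescaled so that libraries of unlike depth compare). In each group, values are given in the order of replicates 1 to 3. *Med23* measured 47.6, 70.8 and 24.1 CPM among WT libraries and 31.6, 29.8 and 36.8 CPM among KO libraries. The groups thus overlapped at the targeted gene, with means of 47.5 CPM in WT and 32.8 CPM in KO. Its edgeR result was far from a call (adjusted p = 0.99), so *Med23* counts did not separate KO from WT. Whether each library carried the deletion was not tested. The library labelled WT replicate 3 was below every KO library, and directions were therefore also computed without that library. Replicate 3 of both groups also stood apart at 4 Y-linked genes, with 1 and 0 counts against at least 1036 in every other library. *Xist*, which is expressed from the inactive X chromosome, had 4819 and 7853 counts there and at most 111 elsewhere. By these counts replicate 3 of each group was female and the other libraries male. All 14 HSC markers were detected in every library, at a summed 3161 CPM or more. The muscle list of 60 genes, of which 59 are in the table, summed to between 380.7 and 810.3 CPM in WT and between 70.8 and 133.1 CPM in KO, and 39 of the 59 were at 0 counts in every KO library. Of these 39, 3 were at 0 in WT too, and 21 had at least 20 WT counts.

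Among the 10 genes, *H19* was the 1 whose lower level in the KO libraries passed the test. The genes *Igf2*, *Peg3* and *Dlk1* were also lower in every KO library than in any WT library, but did not pass it. *Cdkn1c*, *Grb10*, *Ndn*, *Igf2r* and *Meg3* overlapped between the groups, and *Plagl1* had too few counts for the test. The test was edgeR's quasi-likelihood test with Benjamini-Hochberg adjustment over 12513 genes. It called 1 of the 9 members tested, lower, beside 0.0559% of all genes called lower, 0.016% called higher and 0.0719% called in either direction. Counts of the groups did not overlap in 4 of the 9, all lower, beside 6.15% of all genes lower, 6.25% higher and 12.4% in either direction. These 4 passed the filter on low counts through their WT libraries, which limits what their shared direction shows. At an unadjusted p under 0.05 there were 3 members, *H19*, *Igf2* and *Peg3*, all lower, beside 2.77% of all genes lower.

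**Figure D1:**
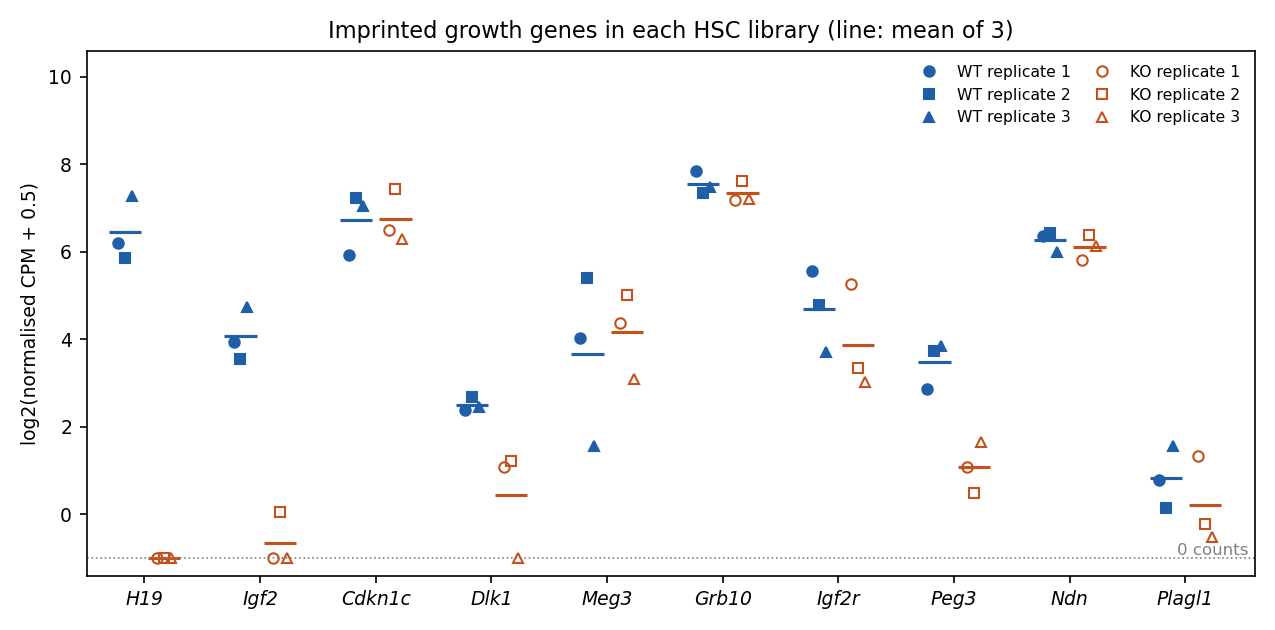
Level of each gene in each library as log2(normalized CPM + 0.5), with WT filled and KO open, marker shapes for replicates 1 to 3, and lines at the mean of 3; the dotted line is 0 counts. *H19* lay at 0 counts in all 3 KO libraries and at 57.8 CPM or more in WT, whereas the *Cdkn1c*, *Grb10* and *Ndn* points of the groups overlapped.

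*H19* encodes a noncoding RNA that restrains growth and competes with *Igf2* for shared enhancers. The WT libraries held 358, 470 and 505 counts of it, or 73.4, 57.8 and 156.1 CPM, and each KO library held 0. The groups were separate, with the library labelled WT replicate 3 the highest. The fitted log2 fold change was -11.98 (standard error 0.94, edgeR adjusted p = 0.0043). Since KO was at 0, this estimate depends on the prior count, and against 3 counts in each KO library *H19* was at least 163-fold lower. Without the library labelled WT replicate 3 the log2 fold change was -11.54 (edgeR adjusted p = 0.015), so the call did not rest on the library lowest in *Med23*. Without replicate 3 of both groups it was -11.58 (edgeR adjusted p = 0.024).

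*Igf2* encodes a fetal growth factor expressed from the paternal copy of the same locus. It had 73, 91 and 85 counts in WT and 0, 3 and 0 in KO, equal to 15.0, 11.2 and 26.3 CPM in WT and 0, 0.55 and 0 CPM in KO. The highest KO library was thus far below the lowest WT library. The ratio of WT to KO, with depth taken into account, was 78.5, with an exact counting interval from 26.6 to 383.3 that does not include the spread between samples. The log2 fold change was -6.35 (standard error 1.17), which missed the threshold in edgeR (adjusted p = 0.18) and passed in DESeq2 (adjusted p = 2.0e-05), a test that called 0.56% of all genes lower and 0.4% higher. It ranged from -9.51 without KO replicate 2, the KO library with counts, to -5.83 without KO replicate 3, and was -5.42 without replicate 3 of both groups. Reads of *Igf2* cannot be told apart from those of *Igf2os*, which is antisense to it, because use of strand was not stated, and *Igf2os* had 1, 10 and 0 counts in WT and none in KO. *Nctc1*, a noncoding gene near the locus, was at 0 in all 6 libraries.

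*Igf2r* encodes the receptor that binds Igf2 and takes it to the lysosome. It had 228, 220 and 41 counts in WT and 187, 53 and 38 in KO, or 46.8, 27.0 and 12.7 CPM against 37.9, 9.65 and 7.69 CPM. KO replicate 1 exceeded WT replicate 2 and the library labelled WT replicate 3, so the groups overlapped. The log2 fold change was -0.65 (standard error 0.68, edgeR adjusted p = 0.997), and it moved from -1.73 without KO replicate 1 to -0.12 without WT replicate 1. *Airn*, the noncoding RNA antisense to *Igf2r* that silences its paternal copy, had 31, 55 and 6 counts in WT and 20, 8 and 1 in KO. The fit gave *Airn* a log2 fold change of -1.39 (standard error 1.17, edgeR adjusted p = 0.99). Without strand, reads of this pair cannot be separated where the genes overlap.

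*Grb10* encodes an adaptor that dampens signalling from the insulin and Igf1 receptors. It had 1116, 1321 and 578 counts in WT and 713, 1088 and 730 in KO, or 228.8, 162.3 and 178.6 CPM against 144.5, 198.0 and 147.7 CPM. KO replicate 2 lay above the lower WT libraries. The log2 fold change was -0.22 (standard error 0.23, edgeR adjusted p = 0.997).

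*Cdkn1c* encodes p57, the Cip/Kip inhibitor of cyclin-dependent kinases, and lies 791522 bp from *Igf2*, at chr7:143458339-143461050. It had 294, 1225 and 426 counts in WT and 447, 954 and 385 in KO, or 60.3, 150.6 and 131.7 CPM against 90.6, 173.6 and 77.9 CPM. The KO values spanned 77.9 to 173.6 CPM and the WT values 60.3 to 150.6 CPM, so that the groups covered much the same range. The means were 114.2 ± 47.6 CPM in WT and 114.0 ± 52.0 CPM in KO (SD, n = 3 in each group). The log2 fold change was -0.0017 (standard error 0.39, edgeR adjusted p = 0.9996). *Kcnq1ot1*, the paternal noncoding RNA that silences *Cdkn1c* on that copy, was at 168.7, 240.5 and 180.2 CPM in WT and 167.3, 214.0 and 228.7 CPM in KO. The fitted log2 fold change of *Kcnq1ot1* was 0.05 (standard error 0.23, edgeR adjusted p = 0.997).

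*Dlk1* encodes a transmembrane relative of the Notch ligands that can be shed, and *Meg3* the maternal noncoding RNA 77664 bp away. *Dlk1* had 23, 48 and 16 counts in WT and 8, 10 and 0 in KO, or 4.72, 5.90 and 4.94 CPM against 1.62, 1.82 and 0 CPM. All KO libraries were below all WT libraries, at low counts, and the log2 fold change was -2.15 (standard error 1.24, edgeR adjusted p = 0.96).

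*Meg3* had 78, 341 and 8 counts in WT and 100, 174 and 40 in KO, or 16.0, 41.9 and 2.47 CPM against 20.3, 31.7 and 8.09 CPM. The library labelled WT replicate 3 was the lowest of the 6 and WT replicate 2 the highest. The log2 fold change was -0.02 (standard error 0.82, edgeR adjusted p = 0.998), and 1.11 without WT replicate 2. The other noncoding RNAs of the cluster were low. *Rian* had 3, 46 and 10 counts in WT and 26, 13 and 2 in KO (log2 fold change -0.23, standard error 1.22), *Mirg* had at most 7 in any library, and *Rtl1* was at 0 in all 6.

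*Peg3* encodes a zinc finger protein of the paternal set on proximal chromosome 7. It had 33, 105 and 45 counts in WT and 8, 5 and 13 in KO, or 6.77, 12.9 and 13.9 CPM against 1.62, 0.91 and 2.63 CPM. Every KO library was below every WT library. The log2 fold change was -2.69 (standard error 0.85, edgeR adjusted p = 0.58), and -2.51 when the library labelled WT replicate 3 was left out (edgeR adjusted p = 0.67). Its neighbor *Usp29* had at most 2 counts in any library. The *Peg3* and *Meg3* promoter windows printed above both hold the response element. Neither gene was called in edgeR, and a part of the element in their levels was not tested.

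*Ndn* encodes necdin, a growth suppressor that restrains HSC proliferation. It had 401, 699 and 207 counts in WT and 276, 456 and 345 in KO, or 82.2, 85.9 and 64.0 CPM against 55.9, 83.0 and 69.8 CPM. The groups overlapped, and the log2 fold change was -0.15 (standard error 0.28, edgeR adjusted p = 0.997). Of the other genes of its cluster, *Magel2* had 1 count in all, *Mkrn3*, named after its values were seen, had 4, 10 and 1 counts in WT and 39, 47 and 9 in KO, and *Snrpn* had 9, 85 and 32 counts in WT and 52, 39 and 107 in KO (log2 fold change 0.82, standard error 0.78, edgeR adjusted p = 0.99). *Mkrn3* was too low for the filter, and without it the log2 fold change was 2.88 (edgeR adjusted p = 0.67). *Peg12* overlapped, with a log2 fold change of 0.84 (standard error 0.80).

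*Plagl1*, a zinc finger transcription factor that regulates other imprinted genes, had 6, 5 and 8 counts in WT and 10, 2 and 1 in KO. It did not pass the filter on low counts, and without that filter its log2 fold change was -0.68 (edgeR adjusted p = 0.95). For each single gene the exact two-sided permutation test of log2(CPM + 0.5) could not go below p = 0.1 with 3 samples against 3, and it reached 0.1 for *H19*, *Igf2*, *Dlk1* and *Peg3*.

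**Figure D2:**
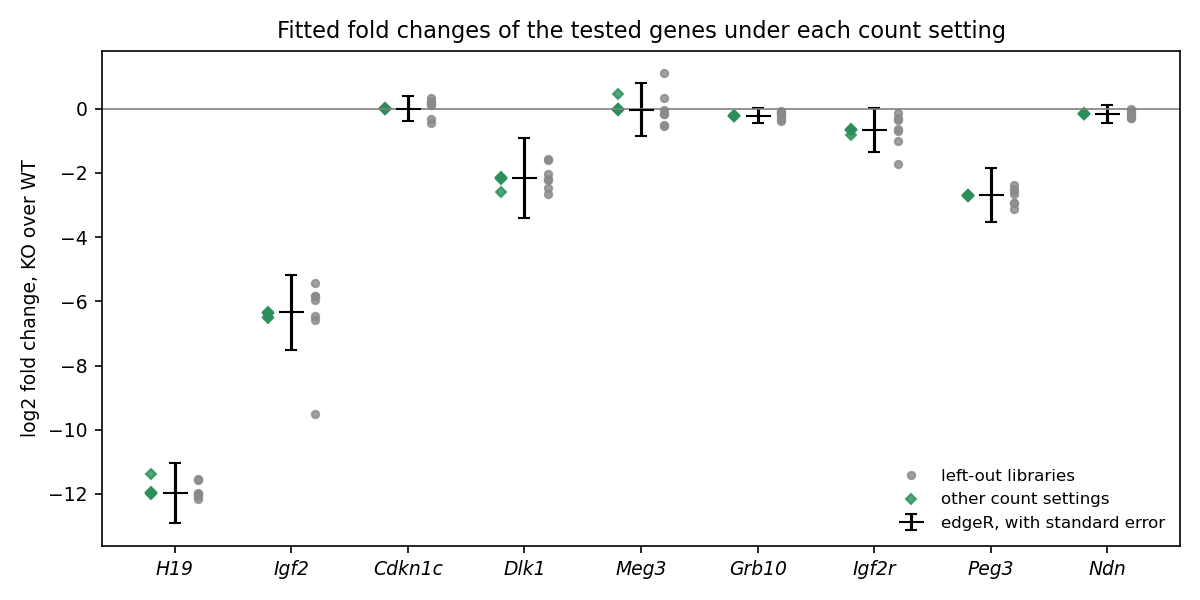
Log2 fold change of KO over WT for the 9 genes that passed the filter, as the edgeR estimate with its standard error, other settings of the count tests, and fits with libraries left out. *H19* stayed between -12.15 and -11.39, whereas *Meg3* ranged from -0.53 to 1.11.

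Levels were compared between genes per length, on the deposited FPKM. In WT, *Ndn* (46.2 ± 9.33 FPKM) and *Cdkn1c* (39.4 ± 16.0) were highest and overlapped, and *Cdkn1c* in turn overlapped *Grb10* (18.5 ± 4.12) and *H19* (16.2 ± 7.89; all SD, n = 3). *Igf2r* (2.96 ± 1.87) overlapped *Igf2* (1.28 ± 0.50), and *Igf2* overlapped *Meg3* (0.79 ± 0.79). *Peg3* (0.68 ± 0.21) lay within the *Meg3* range and above *Dlk1* (0.30 ± 0.043), and *Plagl1* was lowest at 0.085 ± 0.051. In KO the order was *Ndn*, *Cdkn1c*, *Grb10*, *Igf2r* and *Meg3*, then *Peg3*, *Dlk1*, *Plagl1* and *Igf2*, with *H19* listed at 0. The order depends on the gene length. The FPKM imply 5688 bases for *H19* and 1652 for *Ndn*, against 2460 and 3694 in the union of annotated exons, and on that union *Cdkn1c* (56.0 CPM per kb) and *H19* (38.9 CPM per kb) were the highest in WT.

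The spread of each gene over the WT libraries was then compared with that of muscle genes, a list described above. *Myh3*, the embryonic myosin heavy chain, was counted 283, 346 and 329 times in the WT libraries and never in a KO library. Its WT counts were thus divided 29.5, 36.1 and 34.3%, while the library totals were divided 28.9, 49.5 and 21.5%. The whole muscle list was divided 28.3, 38.8 and 32.9%. This list holds *Chrnb1*, an acetylcholine receptor subunit with the most WT counts in it, which was also counted in KO, and without it the division was 29.7, 35.8 and 34.5%. A gene was said to share a division when all 3 percentages lay inside the exact (Clopper-Pearson) 95% intervals of its own shares. The intervals cover counting error only, and reads without molecular identifiers are not independent molecules.

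The WT counts of *Igf2* were divided 29.3, 36.5 and 34.1% (intervals 23.7 to 35.4, 30.6 to 42.9 and 28.3 to 40.4%). They shared the muscle division, and the largest gap to *Myh3* was 0.43 percentage points. The depth shares of the second and the third library lay outside the *Igf2* intervals. *Igf2* had 0.26 counts for each *Myh3* count in all 3 WT libraries.

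*H19* was divided 26.9, 35.3 and 37.9% (24.5 to 29.3, 32.7 to 37.9 and 35.3 to 40.6%), also away from depth. The whole list fell outside its interval in WT replicate 2 and in the library labelled WT replicate 3, so *H19* did not share that division, nor that of the list without *Chrnb1* or of *Myh3* alone. It did share that of the 19 muscle genes with at least 50 WT counts and at most 10% as many in KO, 28.9, 35.4 and 35.7%. These 19 were picked by their counts in these same data, by a rule that *H19* also meets, so this match is given as a description. Against *Myh3* the largest gap of *H19* was 3.54 percentage points, with 1.26, 1.36 and 1.54 *H19* counts for each *Myh3* count.

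The other 7 members with at least 20 WT counts shared neither muscle division. *Dlk1*, at 26.4, 55.2 and 18.4%, shared that of the library totals, with wide intervals, as did 9.45% of genes with at least 20 WT counts. *Peg3* was divided 18.0, 57.4 and 24.6%, and *Meg3* 18.3, 79.9 and 1.87%. *Cdkn1c*, *Grb10*, *Igf2r* and *Ndn* each differed from the muscle list by at least 13.7 percentage points in 1 library. The muscle division was shared by 1 of the 9 members, beside 5.31% of the 13509 genes with at least 20 WT counts. That of the 19 genes was shared by 2 of the 9, beside 4.23%, and that of *Myh3* alone by 1 of the 9, *Igf2*, beside 4.6%. Among genes with 200 or more WT counts, as *H19* and *Igf2* had, the 3 shares were 2.3, 1.16 and 1.55%.

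**Figure D3:**
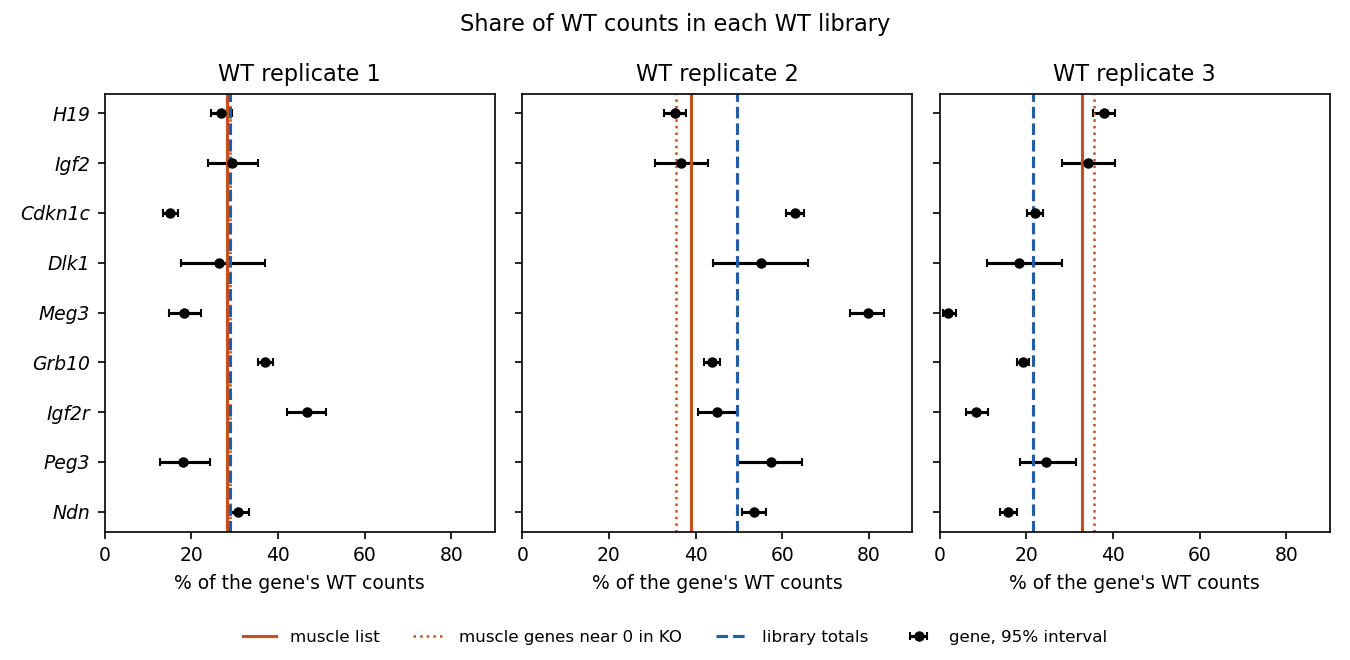
Share of each gene's WT counts found in each WT library, in percent, with exact 95% counting intervals; lines mark the shares of the muscle list, of the 19 muscle genes near 0 in KO, and of the library totals. The *Igf2* intervals span both muscle lines in every WT library, the *H19* intervals span the line of the 19 genes in each and that of the whole list in WT replicate 1, and *Meg3* holds 79.9% in WT replicate 2.

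By Pearson's r of log2(CPM + 0.5) over the 6 libraries, the genes most like *H19* among all tested were *Ankrd1*, *Myh3* and *Actc1*, a cardiac and fetal skeletal actin, with r of at least 0.9998. The 3 KO libraries were at 0 *H19* counts and the 3 WT libraries were not, so this r mainly describes that split. *Acta1*, the skeletal actin, had 158, 195 and 188 counts in WT and 1, 0 and 1 in KO, and *Actc1* had 104, 138 and 137 in WT and none in KO. *Myh3*, *Acta1* and *Actc1* were called lower in edgeR (adjusted p = 0.0043, 0.0043 and 0.025), 3 of the 31 muscle genes tested, beside 0.0559% of all genes. Of the 31, 27 were lower in every KO library, beside 6.15% of all genes tested. An unadjusted p under 0.05 was reached by 26, all lower, beside 2.77% of all genes lower. DESeq2 called 21, beside 0.56% of all genes called lower and 0.4% higher. A gene at 0 counts in every KO library can pass the filter on low counts only through WT, so its direction was fixed. *Ttn* and *Tpm2* were also lower in every KO library but missed the threshold, and *Chrnb1* overlapped (log2 fold change -0.24, standard error 0.39). Of the stroma and fibroblast markers, *Pdgfra*, *Dcn*, *Lum*, *Twist1* and *Twist2* were at 0 in all 6 libraries, and the list summed to 33.6 to 54.4 CPM in WT and 15.5 to 36.6 CPM in KO. The 4 stroma markers tested all had estimates below 0 (median log2 fold change -1.46) with overlapping groups and no call. *Fn1*, for example, had 12, 159 and 11 counts in WT and 0, 2 and 14 in KO. *Col3a1*, *Cxcl12* and *Prrx1* were counted at most 6 times in any WT library and not in KO, and *Postn* had 26 counts in KO replicate 3 and at most 1 elsewhere. The mature blood markers summed to 5.10 to 21.1 CPM in 5 libraries and to 217.7 CPM in KO replicate 3. The part of muscle or stromal RNA in the *H19* and *Igf2* results was not tested. In bulk samples, fewer cells of a type and less RNA per cell cannot be told apart.

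For the members whose groups overlapped, the most similar genes were *Retsat*, *Fundc2* and *Inafm2* for *Cdkn1c*, with r of at least 0.99, and *Sppl2b*, *Ccdc14* and *Lss* for *Meg3*, with r of at least 0.989. For *Grb10* they were *Idh3b*, *Zfp354b* and *Sugct*, for *Igf2r* they were *Fra10ac1*, *Gm15910* and *Xpr1*, and for *Ndn* they were *Dpcd*, *Pnpla7* and *Gm17029*. These are the 3 highest of 12513 values for each member, over 6 libraries, and are given as a description.

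In the wider set of imprinted genes no change passed the test. Of 70 listed genes, 69 were in the table, 10 had no count and 40 were tested. None was called in edgeR or in DESeq2, and 3 had an unadjusted p under 0.05, all lower (*Phlda2*, *Ppp1r9a* and *Mest*). Over all genes, 2.77% were lower at that unadjusted p, and 5.71% passed it in either direction. The median log2 fold change was 0.06, beside -0.01 over all genes tested. In 4 of the 40 the KO libraries were all lower and in 2 all higher, beside 6.15 and 6.25% of all genes tested. Among listed genes too low for the test, *Zim1*, *Cobl* and *Zdbf2* were also lower in every KO library and *Mkrn3*, *Nap1l5* and *Qpct* higher. *Phlda2*, a maternally expressed gene of the *Cdkn1c* domain that limits placental growth, had 111, 184 and 53 counts in WT and 20, 37 and 49 in KO. The fit gave it a log2 fold change of -1.58 (standard error 0.55, edgeR adjusted p = 0.70).

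*Ppp1r9a*, which encodes an actin-binding scaffold, had 522, 791 and 261 counts in WT and 365, 297 and 207 in KO (log2 fold change -0.75), and *Slc22a3*, an organic cation transporter of the *Igf2r* cluster, had a log2 fold change of -0.50. *Ampd3*, an AMP deaminase, and *Commd1* were higher in every KO library, with log2 fold changes of 0.60 and 0.30. *Mest*, a paternally expressed gene that was named after its values were seen, had 13, 32 and 31 counts in WT and 3, 3 and 8 in KO. The WT shares of 4 of the 42 genes with enough counts matched the muscle division, *Nnat*, *Herc3*, *Peg10* and *Mcts2*, beside 5.31% of all genes, and 4 matched the library totals, *Mcts2* among them. *Nnat* and *Peg10* had 33 and 21 WT counts, so their intervals were wide. For each gene that matched the muscle division, the WT and KO libraries overlapped.

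**Figure D4:**
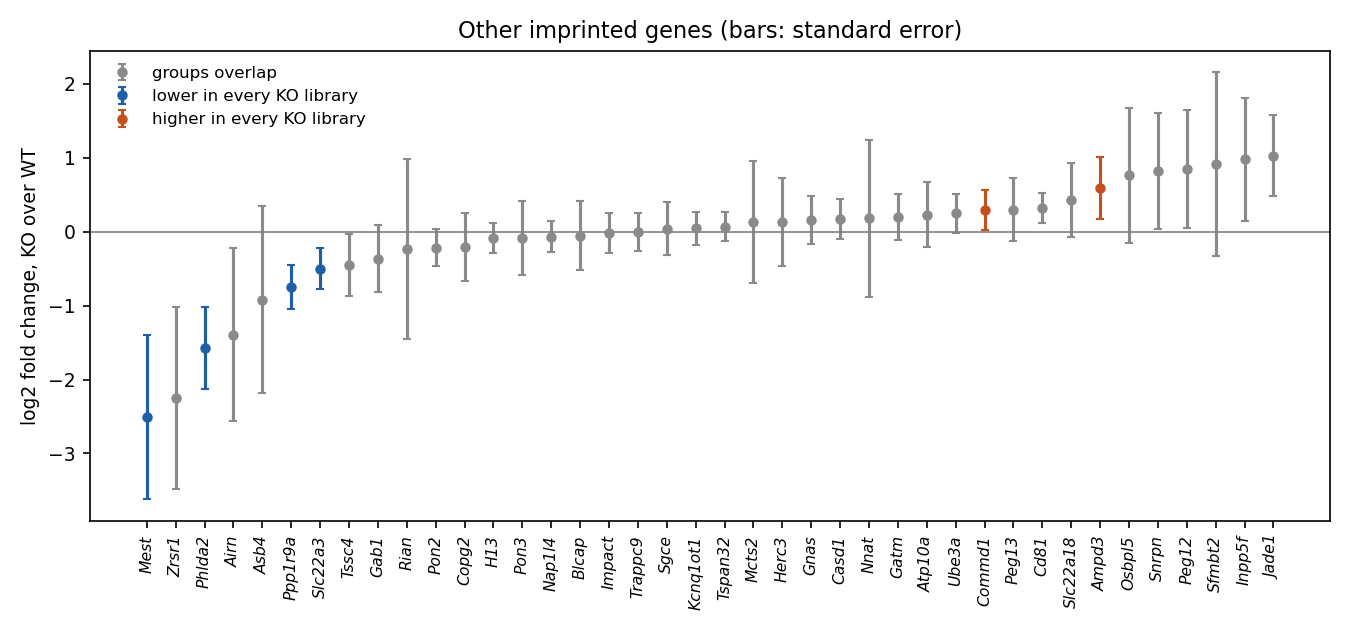
Log2 fold change of KO over WT with its standard error for the 40 other imprinted genes tested, ordered by size and colored by whether the KO libraries all lay below, all above, or among the WT libraries. The values run from -2.51 for *Mest* to 1.03 for *Jade1*, around a median of 0.06, and none passed the threshold.

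Genes of the IGF axis, the receptors, binding proteins and regulators around Igf2, were read next. Of 22 listed, 8 were tested, with none called in edgeR, 1 in DESeq2 and 2 with an unadjusted p under 0.05, both lower, beside 0.56% of all genes called lower in DESeq2 and 2.77% lower at that unadjusted p. The median log2 fold change was -0.04. In 1 of the 8 the KO libraries were all lower and in 0 all higher, beside 6.15 and 6.25% of all genes tested. Among listed genes too low for the test, *Igfbp3* and *Igfbp6* were also lower in every KO library and 0 were higher. *Igfbp5*, a binding protein of the growth factors that was named after its values were seen, had 30, 31 and 30 counts in WT and 0 in every KO library, a difference of at least 10.9-fold (edgeR adjusted p = 0.30). It was the 1 gene called by DESeq2, but it passed the filter on low counts only through WT, so its direction was fixed. The WT counts of *Igfbp5* shared the muscle division and not that of the library totals. *Igfbp3* and *Igf2bp3*, with 23 and 26 WT counts and thus wide intervals, shared both. This makes 3 of 10 genes, beside 5.31% of all with at least 20 WT counts. Among all genes with 200 or more the share was 2.3%, so genes with few counts matched more readily. *Igf2bp2*, which encodes an RNA-binding protein of *Igf2* mRNA, had 103, 248 and 29 counts in WT and 14, 59 and 16 in KO, and its groups overlapped (log2 fold change -1.85, standard error 0.72, edgeR adjusted p = 0.77). The receptors *Igf1r* and *Insr* had log2 fold changes of -0.37 (standard error 0.28) and 0.03 (standard error 0.36).

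The genes that keep imprints were also measured. Of 18 listed, 14 were tested and none was called in edgeR or DESeq2, and 0 had an unadjusted p under 0.05. *Zfp57*, which recruits the silencing machinery to methylated imprinting control regions, was lower in every KO library by a log2 fold change of -0.20 (standard error 0.48). *Dnmt3a*, a de novo DNA methyltransferase, was at 203.8, 207.9 and 209.8 CPM in WT and 197.5, 102.1 and 138.4 CPM in KO (log2 fold change -0.51, standard error 0.26, edgeR adjusted p = 0.93). The maintenance methyltransferase *Dnmt1*, the insulator protein gene *Ctcf* and *Trim28* overlapped between the groups, with log2 fold changes of -0.49, 0.22 and -0.02. The median over the 14 was -0.08.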

How the data were processed

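Bulk RNA-seq of 3 WT and 3 KO HSC samples was analyzed. Per the labels, RNA was amplified with the SMART-Seq v4 kit, whereas the methods name a TruSeq kit. The submitters' processing notes name TopHat, HTSeq and mm10, without versions. The authors deposited raw counts of reads on genes and FPKM values, which equal those counts divided by a gene length and the column total (spread of the implied length at most 0.0703%). The labels number both groups from 1 to 3. Of 34745 identifiers, 34344 were found in GENCODE M21.

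Counts were fitted in R 4.3.3 with edgeR 4.0.16 (filterByExpr, TMM, robust quasi-likelihood test, two-sided, Benjamini-Hochberg at 0.05). limma 3.58.1 on log2(FPKM + 1) or log2(FPKM + 0.1), DESeq2 1.42.0, upper-quartile scaling, TMM without the muscle list and Gm26917 and Gm42418, other filters, a replicate block and left-out samples were alternatives. Intervals used SciPy 1.17.1. The procedure was tested on simulated data.

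The members and lists were chosen with earlier results of these data known. Named genes were all members, their locus neighbors, *Med23*, list genes past the threshold or averaging 50 counts or more without overlap (at most 5 per list by fold change), *Myh3*, *Acta1*, *Actc1* and the 3 other muscle genes with most WT counts, and the 3 genes most like each member with that mean. The single-cell and ATAC-seq data were not analyzed here.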

Additional observations from a re-analysis of the deposited data

How the results depend on the processing

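*H19* was the 1 member called in every edgeR fit and in limma when genes below a mean FPKM of 1 were dropped, DESeq2 called 2 (*H19* and *Igf2*), and limma on log2(FPKM + 1) without a filter called 0, where *H19* had a log2 fold change of -4.01 and an adjusted p of 0.12. When single samples were left out, the *H19* adjusted p was 0.015 to 0.030 and that of *Igf2* 0.18 to 0.45. The IGF axis had 0 calls except in DESeq2, with 1, and the other imprinted genes and imprint keepers had 0 throughout. Beside the muscle genes near 0 in KO, 2 members shared the WT division in place of 1. The sign of *Cdkn1c* and *Meg3*, both near 0, was not fixed. *Cdkn1c* was at 0.011 without a filter, 0.00029 under a minimum mean of 10 counts, 0.058, 0.060 and 0.058 in the limma fits (FPKM + 1, FPKM + 0.1 and no filter), 0.016 with the replicate block, 0.34 without replicate 3 of both groups, and -0.44 to 0.25 with 1 sample left out. *Meg3* was at 0.069 in limma without a filter, 0.45 with the replicate block, and -0.53 to 1.11 with 1 sample left out. The cause was not tested. Same-numbered WT and KO samples correlated in their deviations at 0.17, 0.032 and 0.17, and WT replicate 2 correlated best with KO replicate 1 (0.035). Not every pair was over 0.1, so the numbers were not taken to pair the samples, although replicate 3 of both groups shared the near absence of Y-linked counts. With the replicate block 5 genes of all were called, against 9, and *H19* was 1 of them (adjusted p = 0.026). DESeq2 called 120 genes, limma 15, 10 and 1, the fits with a sample left out 5 to 11, and that without replicate 3 of both groups 6. A gene with fewer than 3 counts in every library was not detectable at this depth.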
